A study of Homo sapiens with 9 samples.

Results

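The mesenchymal glioma markers and regulators are 10 genes: CHI3L1, CHI3L2, S100A4, LGALS3, CD44, STAT3, CEBPB, CEBPD, RUNX1 and RUNX2. They were found by matching the Ensembl gene IDs of the deposited RNA table to these symbols, and all 10 were among its 33264 genes and among the 16456 genes tested. The RNA is from U87MG cells, a long-established line grown from a human glioblastoma, and each of 3 groups has 3 libraries. The parent group was U87MG without selection. The R50 group was U87MG selected with 50 µM temozolomide and kept in the drug, and the R50_OFF group was selected with the same dose and taken off the drug after 2 months. Temozolomide alkylates DNA and is a standard glioblastoma drug. Both resistant lines are described as clonal, so each stands for 1 selected line, and nothing says that replicates were separate cultures. The p-values thus set group differences against no more than the spread of these libraries, which may be technical.

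Glioblastoma cells are commonly described along a mesenchymal to proneural range of expression states, and the mesenchymal state is known for secreted glycoproteins, adhesion receptors and an inflammatory character. In gliomas STAT3 and CEBPB are known as regulators of this state, together with CEBPD and RUNX1, while CHI3L1 and CD44 are its most used markers. STAT3 is activated through the receptors of the interleukin-6 family and JAK kinases, and it is controlled largely by phosphorylation, which RNA levels do not show.

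The traced reads came to between 28.7 M and 35.8 M per library, and replicates of every group differed by more than sampling noise. R50 replicate 2 stood furthest from its group, with a mean chi-square per gene of 14.98 and 18.06 against the other R50 libraries, beside 2.37 to 6.92 for the pairs that do not include it. Values are the deposited normalized signal, which is comparable between genes per length only as far as the authors' divisor, the median transcript length, is. For CD44 that divisor was 705 bases, so its level per length depends on many short annotated transcripts. U87MG is a glioma line, and the astrocyte markers were near absent: GFAP, the intermediate filament of astrocytes, reached a signal of 8.18 at most, S100B reached 1.78, and ALDH1L1 was highest, at a mean of 36.4 in parent. For AQP4 and GJB6 no row of the deposited table was matched by symbol. The myeloid markers PTPRC and TYROBP reached 2.94 and 1.92 at most, and CSF1R, at a mean of 1423 in parent, made up most of the summed level of that list.

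Of the 10 genes, 6 were higher and 2 lower in R50 than in parent, 2 were higher and 4 lower in R50_OFF than in parent, and 4 were higher and 5 lower in R50_OFF than in R50. A large share of the whole table passed as well, at 63.3%, 52.0% and 59.5% of tested genes in the 3 comparisons (limma, Benjamini-Hochberg adjusted p below 0.05), so the number of calls alone says little about these genes. In cultures measured in bulk, fewer cells of a kind and less RNA per cell cannot be told apart. By direction, the background was 31.6% higher and 31.7% lower for R50 against parent, 26.3% and 25.7% for R50_OFF against parent, and 30.2% and 29.3% for R50_OFF against R50. The libraries of the groups compared did not overlap for 9, 8 and 9 of the 10 genes, beside 68.2%, 62.8% and 63.4% of all tested genes. At least 2-fold changes that passed were found for 4, 2 and 2 of the genes, beside 21.6%, 12.6% and 16.7% of tested genes. The median log2 change over the 10 genes was 0.34, 0.05 and -0.14 in the 3 comparisons, beside 0.02, 0.00 and 0.00 over all tested genes. Upper quartile scaling moved the median of all tested genes to 0.28, 0.11 and -0.16, and its calls were 7963 higher and 3070 lower, 5476 and 3083, and 3383 and 6433, in place of 5206 and 5216, 4334 and 4231, and 4965 and 4820. Both comparisons with parent share the parent libraries, and the difference between the resistant lines is tested by R50_OFF against R50. Without R50 replicate 2 the counts were 6 higher and 3 lower, 4 and 4, and 4 and 5. With upper quartile scaling 4 of the 10 genes were higher in R50_OFF than in parent, in place of 2, and 1 was higher in R50_OFF than in R50, in place of 4. The additional calls without R50 replicate 2 were RUNX1 lower in R50 (adjusted p = 0.00468), and CD44 (adjusted p = 0.0282) and RUNX1 (adjusted p = 0.0204) higher in R50_OFF than in parent.

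**Figure D1:**
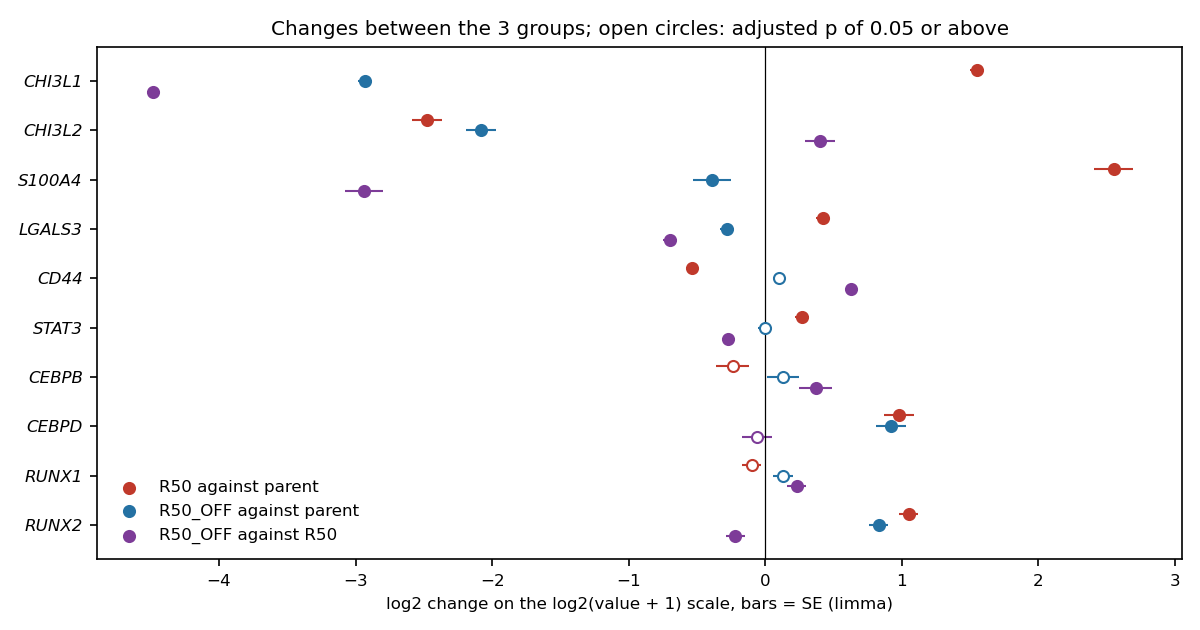
Log2 change of each gene (horizontal axis, log2(value + 1) scale) in the 3 comparisons, with bars for the standard error and open circles where the adjusted p was 0.05 or above. CHI3L1 and S100A4 lie far to the right for R50 against parent and far to the left for R50_OFF against R50, at -4.48 and -2.94, whereas CEBPD and RUNX2 lie to the right in both comparisons with parent.

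The secreted chitinase-like glycoproteins moved in different ways in the 2 resistant lines. CHI3L1 (chromosome 1, 203178931 to 203186704, minus strand, hg38) encodes YKL-40, a secreted protein that binds chitin but does not cleave it and is a serum marker studied in glioma. Its signal was 5018, 5014 and 5149 in the parent libraries, 14422, 14586 and 15444 in R50, and 672, 697 and 626 in R50_OFF. The 3 groups were fully separate, with R50 highest, parent in the middle and R50_OFF lowest. CHI3L1 rose 2.93-fold from parent to R50 (log2 change 1.55, SE 0.05, adjusted p = 9.95e-10) and fell 7.61-fold from parent to R50_OFF (log2 change -2.93, SE 0.05, adjusted p = 6.87e-11). R50_OFF stood 22.3-fold below R50, which was the greatest difference among the 10 genes in any comparison. At least 531 reads lay behind each of these values.

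CHI3L2 (chromosome 1, 111200771 to 111243440, plus strand) encodes the related secreted protein YKL-39. Its signal was 794, 654 and 719 in parent, 147, 128 and 111 in R50 and 174, 163 and 171 in R50_OFF. Every library of both resistant lines lay below every parent library. CHI3L2 fell 5.61-fold in R50 (log2 change -2.48, SE 0.11, adjusted p = 1.06e-08) and 4.27-fold in R50_OFF (log2 change -2.08, SE 0.11, adjusted p = 1.17e-07). It was 1.31-fold higher in R50_OFF than in R50 (adjusted p = 0.0088), a call lost with upper quartile scaling (adjusted p = 0.0898). The ratio of CHI3L1 to CHI3L2 signal was 7.05 ± 0.68 in parent, 117 ± 21 in R50 and 3.94 ± 0.31 in R50_OFF (SD, n = 3 each), so the balance of the 2 paralogs differed between all groups with no overlap.

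The promoter windows of these paralogs are printed because the genes went opposite ways in R50. Each is 300 bases from RefSeq (GRCh38.p14), running from 250 bases before the transcript start to 50 from it, read 5′ to 3′ on the gene's strand, with the CHI3L1 window at chr1:203186655-203186954 and the first of 2 overlapping CHI3L2 windows at chr1:111227409-111227708. Capitals mark matches to TTGCNNAA (C/EBP family) and TTCNNNGAA (STAT family), searched on both strands together with TGTGGT (RUNX) and TGANTCA (AP-1).
CHI3L1: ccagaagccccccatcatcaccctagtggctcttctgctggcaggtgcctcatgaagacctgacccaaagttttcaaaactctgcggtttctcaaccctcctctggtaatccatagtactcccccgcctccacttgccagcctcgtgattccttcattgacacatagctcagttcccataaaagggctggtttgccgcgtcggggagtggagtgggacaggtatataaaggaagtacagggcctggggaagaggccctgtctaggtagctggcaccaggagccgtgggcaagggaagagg
CHI3L2: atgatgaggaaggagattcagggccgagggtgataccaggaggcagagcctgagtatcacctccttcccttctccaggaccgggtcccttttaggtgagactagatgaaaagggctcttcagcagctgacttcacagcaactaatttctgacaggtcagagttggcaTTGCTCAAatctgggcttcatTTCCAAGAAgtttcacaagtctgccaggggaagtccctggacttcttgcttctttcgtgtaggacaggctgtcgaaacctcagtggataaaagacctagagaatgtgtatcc
The CHI3L2 window held TTGCTCAA at -83 and TTCCAAGAA at -62, counted from the start base at 0. The CHI3L1 window held none of the 4 motifs. Of 35116 promoter windows in the table, 10.5% held the C/EBP motif, 7.66% the STAT motif, 13.1% the RUNX motif and 7.71% the AP-1 motif. A match is a description of letters only.

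Of 9 other chitinase-family genes and YKL-40 receptor genes in the list, 5 were tested. In R50 3 of them were higher and 2 lower than in parent, and in R50_OFF 1 was higher and 2 lower, or 3 higher and 2 lower with upper quartile scaling. The main fit thus called 100% and 60% of them, beside 63.3% and 52.0% of all tested genes. IL13RA2, which encodes a decoy receptor of interleukin-13 that also binds YKL-40, was 766, 895 and 798 in parent, 1407, 1373 and 1216 in R50 and 2449, 2458 and 2176 in R50_OFF. It rose in R50 by a log2 change of 0.70 (adjusted p = 1.72e-05) and in R50_OFF by 1.53 (adjusted p = 1.03e-07), so it was highest in the line where CHI3L1 was lowest. SDC1, a heparan sulfate proteoglycan, fell from 9871 ± 276 in parent to 4647 ± 117 in R50 and 6417 ± 323 in R50_OFF (SD, n = 3). TMEM219, a membrane partner of IL13RA2, was 1666 ± 23.6, 2035 ± 219 and 1788 ± 82 in the same order and rose in R50 (adjusted p = 0.00573). The chitinase genes CHIA and CHIT1 were not tested.

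**Figure D2:**
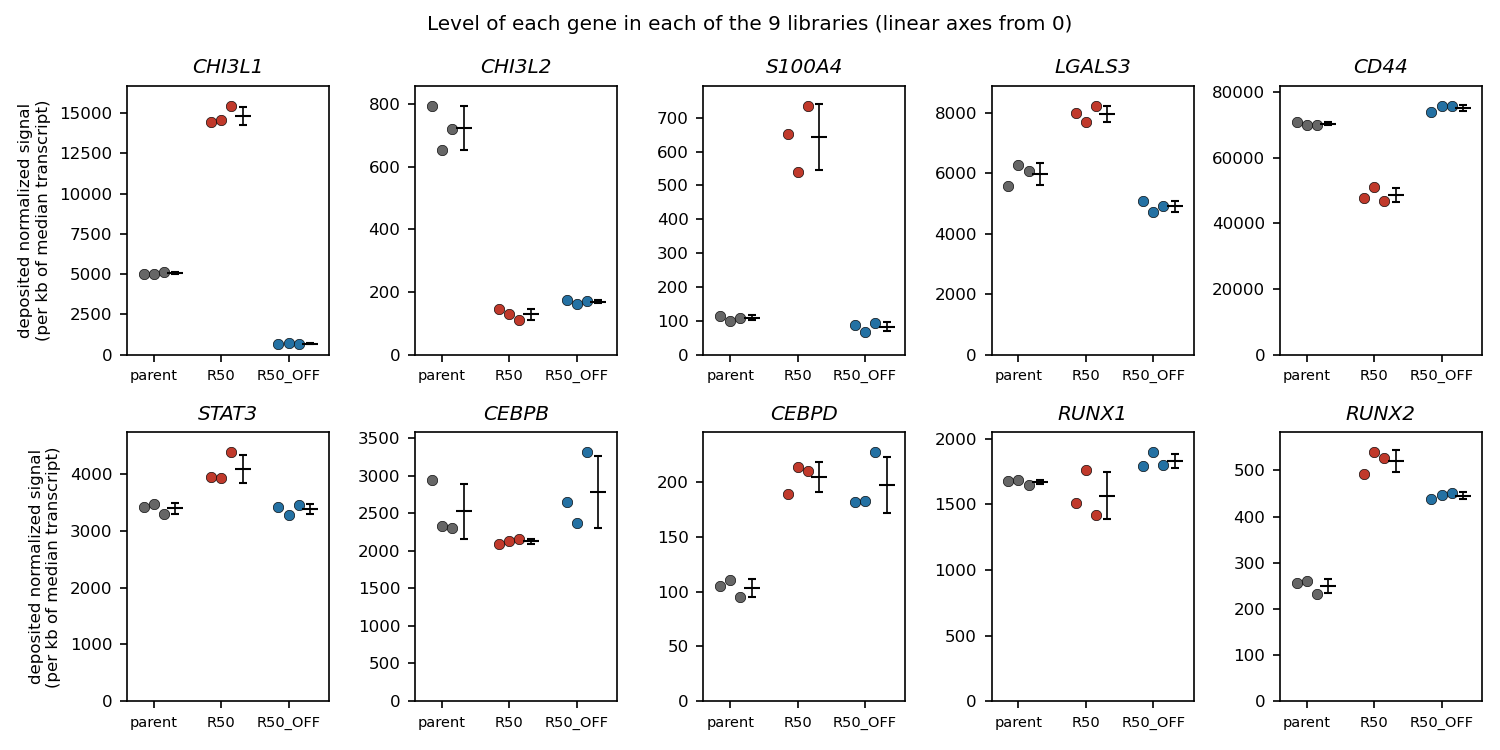
Deposited normalized signal per kilobase of median transcript (vertical axes, linear from 0) of the 10 genes in each of the 9 libraries, with the mean and SD of each group beside its points. CHI3L1, S100A4 and LGALS3 are highest in R50 and lowest in R50_OFF, CHI3L2 is highest in parent, and CEBPD and RUNX2 are lowest in parent.

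S100A4 and LGALS3 had the same order of groups as CHI3L1. S100A4 (chromosome 1, 153543613 to 153550136, minus strand) encodes a calcium-binding protein linked to cell motility and metastasis. Its signal was 115, 100.5 and 109 in parent, 651, 540 and 735 in R50, and 86.4, 67.3 and 94.5 in R50_OFF. The R50 libraries lay far above the others, and the parent and R50_OFF libraries were close without overlapping. S100A4 rose 5.95-fold in R50 (log2 change 2.55, SE 0.14, adjusted p = 7.48e-08) and was 7.76-fold lower in R50_OFF than in R50 (adjusted p = 5.06e-08). It was a low gene outside R50, with 53 to 59 reads per parent library and 43 to 48 per R50_OFF library. Its decrease from parent to R50_OFF, a log2 change of -0.39, passed narrowly (adjusted p = 0.0415, 0.00837 to 0.15 over 18 alternatives). That call was lost without parent replicate 1 (0.115), 2 (0.0514) or 3 (0.0858), without R50 replicate 1 (0.0547) and without R50_OFF replicate 1 (0.0586) or 2 (0.15), and also with no filter, no trend or upper quartile scaling.

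S100A4 overlaps S100A3 on the same strand in GENCODE, so reads of the shared stretch could be assigned to either gene. S100A3 was 723 ± 125 in parent, 2009 ± 252 in R50 and 730 ± 69.9 in R50_OFF (SD, n = 3), and it rose in R50 (adjusted p = 2.1e-06) as S100A4 did. Of 13 tested genes of the S100 proteins and their partners, 6 were higher and 4 lower in R50 than in parent, and 4 were higher and 6 lower in R50_OFF. This makes 76.9% in each line, beside 63.3% and 52.0% of all tested genes. S100A2 rose from 587 ± 64.3 to 3233 ± 221 in R50 and to 1500 ± 146 in R50_OFF. S100A6, at 112451 ± 203 the most abundant S100 gene named here, was 127631 ± 9574 in R50, where it did not pass (adjusted p = 0.0731) but did without R50 replicate 2 (0.0441), R50_OFF replicate 1 (0.0326) or R50_OFF replicate 2 (0.0334). It fell to 86739 ± 9980 in R50_OFF (adjusted p = 0.00234, but 0.184 with quantile normalization). AHNAK, a giant scaffold protein that binds the S100A10 complex, fell from 40848 ± 1649 to 18194 ± 1987 and 20428 ± 1775. The 32 tested genes that start within 1 megabase of the start of S100A4 had a median log2 change of 0.27 for R50 against parent, with 15 higher and 3 lower, beside 0.04 over chromosome 1.

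LGALS3 (chromosome 14, 55124110 to 55145423, plus strand) encodes galectin-3, a lectin that binds β-galactosides on glycoproteins. Its signal was 5576, 6263 and 6084 in parent, 7986, 7703 and 8231 in R50 and 5088, 4711 and 4918 in R50_OFF, with no overlap between any groups. LGALS3 rose 1.33-fold in R50 (log2 change 0.42, SE 0.05, adjusted p = 4.56e-05) and fell 1.22-fold in R50_OFF (log2 change -0.28, SE 0.05, adjusted p = 0.00109). Chromosome 14 as a whole was higher in both lines, with a median log2 change of 0.30 over its 568 tested genes in R50 and 0.19 in R50_OFF, so the rise in R50 was close to that of its chromosome and the fall in R50_OFF went against it. How much of either goes with the chromosome was not tested. The related LGALS1, which encodes galectin-1, went the other way in R50: it fell from 141720 ± 5859 to 89407 ± 8972 (adjusted p = 2.04e-05) and was 144512 ± 9138 in R50_OFF (adjusted p = 0.796 against parent, or 0.00626 and higher with quantile normalization). LGALS3BP, a secreted glycoprotein that binds galectin-3, rose from 15316 ± 729.7 to 18309 ± 1625 in R50 (adjusted p = 0.00509). MGAT5, the glycosyltransferase that builds branched glycans bound by galectin-3, fell from 7048 ± 181 to 3850 ± 121 in R50 (adjusted p = 2.48e-08).

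A list of fibroblast and pericyte markers moved in the same order as these 3 genes. Its summed signal over 6 genes ranged from 17053 to 20490 in parent, from 28318 to 33011 in R50 and from 11983 to 12369 in R50_OFF, and COL1A1 made up most of it, at 17061, 29712 and 11104. Other members of that list did not share the order: LUM was 204, 2.89 and 122, PDGFRA was 114, 7.48 and 35.3, and DCN stayed below 10 in every library. Whether other cells had a part in the levels of CHI3L1, S100A4 and LGALS3 was not tested.

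CD44 (chromosome 11, 35138882 to 35232402, plus strand) encodes the main surface receptor for hyaluronan and had the highest level per length of the 10 genes in every group. Its signal was 70836, 70034 and 69979 in parent, 47634, 50960 and 46895 in R50 and 73999, 75711 and 75756 in R50_OFF. The R50 libraries lay below all others. CD44 fell 1.45-fold in R50 (log2 change -0.54, SE 0.04, adjusted p = 1.53e-06) and was 1.55-fold higher in R50_OFF than in R50 (adjusted p = 6.8e-07). Against parent, R50_OFF was higher by 0.10 with no overlap but did not pass (adjusted p = 0.0926). It passed without R50 replicate 2 (0.0282), with only the 2 groups compared (0.0362), with quantile normalization (0.00557) and with upper quartile scaling (0.00894). The values sum over all isoforms, so the standard and variant forms of CD44 are not told apart.

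The hyaluronan axis of CD44, a list that joins genes of hyaluronan synthesis and breakdown with CD44 partners, was mostly lower in both lines. Of 18 tested genes of this axis, 13 were lower and 2 higher in R50 than in parent, with a median log2 change of -0.59, and 10 were lower and 2 higher in R50_OFF, with a median of -0.37. Together 83.3% and 66.7% passed, beside 63.3% and 52.0% of all tested genes. With upper quartile scaling the counts were 9 lower and 2 higher, and 10 lower and 2 higher. The 2 higher genes became 1 in R50 without parent replicate 2 or any 1 of the R50 replicates, and 1 in R50_OFF without any 1 parent replicate or R50_OFF replicate 1 or 3. The hyaluronan synthase gene HAS2 was 188, 222 and 227 in parent, 5.47, 7.31 and 11.1 in R50 and 57.4, 62.1 and 53 in R50_OFF. It fell in both lines, by a log2 change of -4.62 in R50 (adjusted p = 1.72e-08) and -1.86 in R50_OFF (adjusted p = 3.7e-05). HAS1 fell from 967 ± 25.5 to 240.3 ± 26.8 in R50 and further to 93.8 ± 5.72 in R50_OFF. The remaining synthase gene HAS3, named here after its values were seen, also fell in both (adjusted p = 7.11e-07 and 0.00364). Genes of hyaluronan breakdown count in this list too, and all but HYAL2 are named here after their values were seen. In R50 HYAL2 (-0.31), CEMIP (-0.80) and CEMIP2 (-0.38) were lower than in parent and HYAL3 (0.29) was higher. In R50_OFF CEMIP was higher (0.95, adjusted p = 1.53e-05) and CEMIP2 lower (-0.43), while HYAL2 and HYAL3 did not pass.

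SPP1, which encodes osteopontin, a secreted CD44 and integrin ligand, was 9452, 9123 and 9362 in parent, 805, 939 and 814 in R50 and 7352, 7675 and 7285 in R50_OFF. R50 lay about an order of magnitude below the other groups, and the log2 change was -3.45 in R50 and -0.32 in R50_OFF, with R50_OFF above R50 by 3.13 (adjusted p = 9.24e-11). VCAN, the hyaluronan-binding proteoglycan versican, fell from 6232 ± 264 to 855 ± 79.1 in R50 and 2147 ± 139.8 in R50_OFF. MMP14, a membrane protease that can shed CD44, fell from 81726 ± 2390 to 32864 ± 3459 and 35326 ± 1001. MSN, which encodes moesin, a linker of CD44 to actin, was 401 ± 71.5 in R50 and 456 ± 48.1 in R50_OFF beside 57857 ± 611 in parent.

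**Figure D3:**
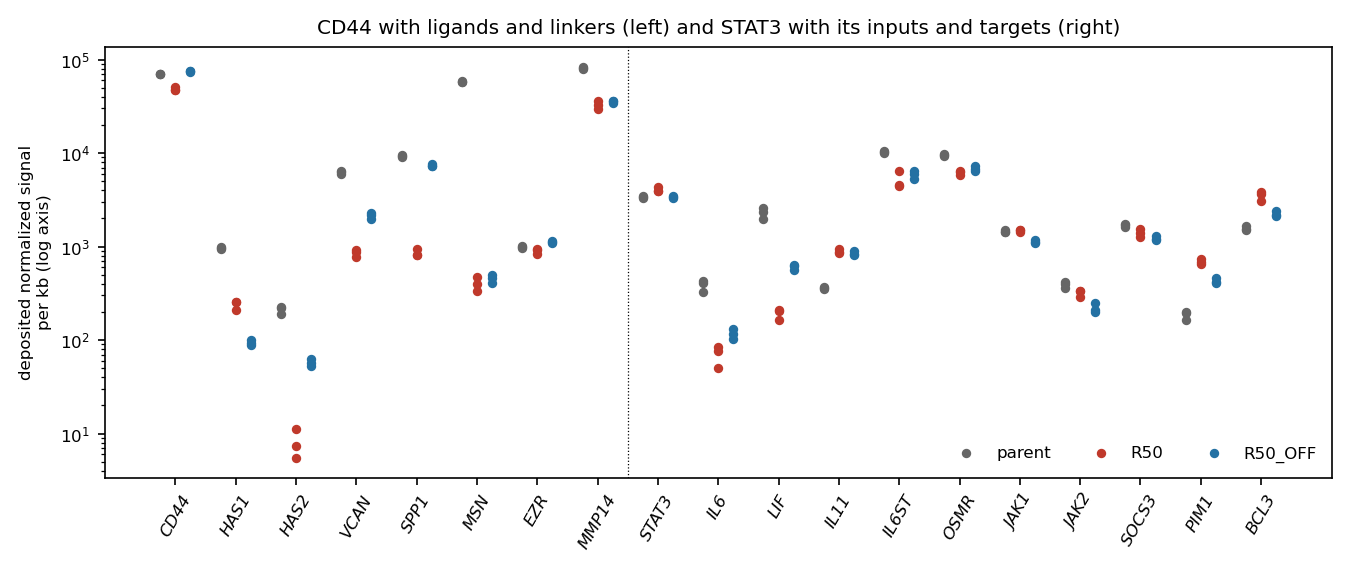
Deposited normalized signal (vertical log axis) in each library for CD44 with its ligands, synthases and linkers on the left, and for STAT3 with its inputs and targets on the right. HAS2 and SPP1 are lowest in R50, MSN is low in both resistant lines, and IL6 and LIF are highest in parent.

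The STAT3 transcript showed small differences. STAT3 (chromosome 17, 42313324 to 42388540, minus strand) was 3420, 3472 and 3289 in parent, 3953, 3928 and 4380 in R50 and 3424, 3282 and 3445 in R50_OFF. R50 lay above the other groups, which overlapped each other. STAT3 rose 1.2-fold in R50 (log2 change 0.27, SE 0.05, adjusted p = 0.000923) and was lower by 0.27 in R50_OFF than in R50 (adjusted p = 0.000971). Against parent, R50_OFF gave a log2 change of 0.00 (SE 0.05, adjusted p = 0.956).

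Of 20 tested genes of the interleukin-6 family, its receptors, JAK kinases and negative regulators, 14 were lower and 2 higher in R50_OFF than in parent, with a median log2 change of -0.33, and with upper quartile scaling 9 were lower and 4 higher. In R50 10 were lower and 5 higher, a balance that turned to 5 lower and 10 higher with upper quartile scaling. Without that scaling 75% passed in R50 and 80% in R50_OFF, beside 63.3% and 52.0% of all tested genes. The cytokine gene LIF was 2560, 1973 and 2314 in parent, 162, 209 and 205 in R50 and 565, 633 and 614 in R50_OFF. It fell in both lines, by log2 changes of -3.57 (adjusted p = 9.95e-10) and -1.91 (adjusted p = 3.04e-07), and IL6 fell by -2.46 (adjusted p = 7.56e-07) and -1.72 (adjusted p = 2.24e-05). IL11, another cytokine of the family, moved the other way, from 359.6 ± 8.66 in parent to 891 ± 55.7 in R50 and 854 ± 45.5 in R50_OFF.

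IL6ST, which encodes gp130, the signalling receptor chain that the family shares, was 10398, 10313 and 10011 in parent, 4463, 6380 and 4555 in R50 and 5285, 6470 and 5983 in R50_OFF. All resistant libraries lay below the parent libraries, and IL6ST fell in both lines (log2 changes -1.02 and -0.80, adjusted p = 2.7e-05 and 0.000259). R50_OFF and R50 did not differ past the threshold (adjusted p = 0.143), but did without R50 replicate 2 (0.39, adjusted p = 0.000834). OSMR, the oncostatin M receptor chain, fell from 9535 ± 255 to 6175 ± 349 and 6849 ± 409. The kinase gene JAK1 had a signal of 1459 ± 48.9 in parent, did not pass at 1474 ± 47.7 in R50 (adjusted p = 0.826, or 0.00139 and higher with upper quartile scaling) and fell to 1130 ± 46.2 in R50_OFF (adjusted p = 0.000142).

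Known STAT3 targets did not move as 1 group. Of 16 tested, 9 were lower and 4 higher in R50, and 9 were lower and 5 higher in R50_OFF, with medians of -0.28 and -0.19. With upper quartile scaling these became 7 lower and 6 higher, and 6 lower and 6 higher. The share called in the main fit was 81.2% and 87.5%, beside 63.3% and 52.0% of all tested genes. SOCS3, the feedback inhibitor induced by STAT3, fell from 1689 ± 68.7 to 1226 ± 64.1 in R50_OFF (adjusted p = 0.000418), and to 1398 ± 146 in R50 (adjusted p = 0.00773), a call lost with quantile normalization (0.0545) and upper quartile scaling (0.892). PIM1, a serine/threonine kinase, rose from 186 ± 20 to 689 ± 39.3 in R50 and 429 ± 28.5 in R50_OFF, and BCL3, a nuclear IκB protein, rose from 1567 ± 69.4 to 3548 ± 410.1 and 2217 ± 135. The median log2 change over chromosome 6, where PIM1 lies, was 0.32 in R50. BCL2L1, which encodes the survival protein BCL-XL, fell from 11459 ± 39.1 to 6961 ± 372 and 6696 ± 95.6, and the adhesion receptor gene ICAM1 fell from 2697 ± 102 to 1342 ± 40.3 and 1800 ± 79.6.

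The 2 C/EBP transcription factor genes differed from each other. CEBPB (chromosome 20, 50190830 to 50192668, plus strand) was 2944, 2327 and 2302 in parent, 2097, 2125 and 2161 in R50 and 2655, 2375 and 3310 in R50_OFF. R50 lay just below both other groups, whose libraries overlapped and were widely spread, at 14.4% and 17.3% of their means beside 1.52% in R50. Counting error was 1.5% of the mean in parent, 1.56% in R50 and 1.4% in R50_OFF. CEBPB did not pass in R50 against parent (log2 change -0.24, SE 0.12, adjusted p = 0.104) or in R50_OFF against parent (0.13, SE 0.12, adjusted p = 0.371). The first of these passed without R50_OFF replicate 3 (0.044) and with only the 2 groups compared (0.0496). It was higher in R50_OFF than in R50 by 0.37 (adjusted p = 0.0196), a call lost without R50_OFF replicate 3 (0.073), with no trend (0.0532), with quantile normalization (0.0545) and with upper quartile scaling (0.112).

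CEBPD (chromosome 8, 47736913 to 47738164, minus strand) was 105, 110.3 and 94.7 in parent, 189, 214 and 210.4 in R50 and 182, 183 and 227 in R50_OFF. All resistant libraries lay above all parent libraries, on 105 to 147 reads in parent and 220 to 285 in the others. CEBPD rose 1.98-fold in R50 (log2 change 0.98, SE 0.11, adjusted p = 2.01e-05) and 1.91-fold in R50_OFF (0.92, SE 0.11, adjusted p = 5.29e-05). The 2 lines overlapped and their difference was -0.06 with an SE of 0.11 (adjusted p = 0.693). Per length, CEBPB was at least an order of magnitude above CEBPD in every group, at means of 2524 and 103 in parent.

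Of 7 tested genes in a list of C/EBP-named genes and basic leucine zipper partners, 3 were higher and 2 lower than in parent in each line. They amount to 71.4% in each line, beside 63.3% and 52.0% of all tested genes. The list holds CEBPZ, a C/EBP gene by symbol only, which was lower in R50 (log2 change -0.35, adjusted p = 0.000934). The 2 lower genes of R50_OFF became 1 without any 1 of the parent or R50_OFF replicates. CEBPG, a C/EBP member without an activation domain, rose from 359 ± 8.8 to 488 ± 37.9 in R50 and 449 ± 21 in R50_OFF. The stress-induced factor gene ATF3 rose from 450.3 ± 64.8 to 1028 ± 47.2 in R50 (adjusted p = 1.36e-06), and DDIT3, an inhibitory C/EBP partner, fell from 669.7 ± 61.7 to 479 ± 44.7 in R50_OFF (adjusted p = 0.00308) and was 676 ± 84.9 in R50 (adjusted p = 0.94). BATF3 was lower in R50, at 284 ± 26.2, and higher in R50_OFF, at 539 ± 9.39, than in parent, at 431 ± 28.1.

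Among the Runt-domain factor genes, RUNX2 rose in both lines and RUNX1 did not pass against parent in either. RUNX2 (chromosome 6, 45328157 to 45664349, plus strand), known as the regulator of bone formation, was 255, 261 and 233 in parent, 493, 539 and 527 in R50 and 438, 446 and 452 in R50_OFF. The 3 groups were separate, with R50 highest. RUNX2 rose 2.08-fold in R50 (log2 change 1.05, SE 0.07, adjusted p = 2.19e-07) and 1.78-fold in R50_OFF (0.83, SE 0.07, adjusted p = 3.13e-06). The lines differed by -0.22 (adjusted p = 0.0168), a call lost without R50_OFF replicate 1 (0.0511). Chromosome 6 had a median log2 change of 0.32 over 838 tested genes in R50 and -0.04 in R50_OFF. RUNX2 thus rose by more than this median in R50, and it rose in R50_OFF where the median did not. For R50_OFF against R50 the median was -0.31, beside -0.22 for RUNX2, and the part of RUNX2 in that was not tested. RUNX2 overlaps SUPT3H on the opposite strand, at 312 in parent, 436 in R50 and 470.5 in R50_OFF, and whether counting used strand is not given in the labels.

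The distal RUNX2 promoter (chr6:45328080-45328379, plus strand, RefSeq on GRCh38.p14) is printed because it held 4 matches to the RUNX motif itself, more than any other promoter window of the 9 genes searched. Capitals mark TGTGGT on the opposite strand (ACCACA) at -191, -87, 16 and 24, the AP-1 motif TGAGTCA at -243 and the C/EBP motif TTGCAAAA at -55, from the start base at 0.
RUNX2: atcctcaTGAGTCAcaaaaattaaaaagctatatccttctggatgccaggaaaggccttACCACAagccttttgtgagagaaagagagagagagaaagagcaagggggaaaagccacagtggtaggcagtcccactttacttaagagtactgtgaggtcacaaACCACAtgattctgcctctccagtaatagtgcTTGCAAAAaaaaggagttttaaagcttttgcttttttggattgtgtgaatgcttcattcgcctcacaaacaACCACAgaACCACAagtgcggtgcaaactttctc
The proximal RUNX2 window held none of the 4 motifs, nor did the windows of CD44, STAT3, CEBPB, RUNX1, S100A4 and LGALS3. No promoter of CEBPD was searched. The values sum over both RUNX2 promoters, so they do not say which one was used.

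RUNX1 (chromosome 21, 34787801 to 36004667, minus strand), a regulator of blood formation, was 1675, 1688 and 1651 in parent, 1508, 1766 and 1421 in R50 and 1797, 1897 and 1802 in R50_OFF. R50 spanned the parent values, with R50 replicate 2 the high one, and R50_OFF lay above both groups. RUNX1 gave -0.10 in R50 (SE 0.07, adjusted p = 0.242) and 0.13 in R50_OFF (SE 0.07, adjusted p = 0.149) against parent. Without R50 replicate 2 both passed, at -0.19 (0.00468) and 0.13 (0.0204). R50_OFF exceeded R50 by 0.23 (adjusted p = 0.0163), a call lost without R50 replicate 1 (0.0562) or 3 (0.0588), without R50_OFF replicate 2 (0.0573) and with upper quartile scaling (0.427). The 190 tested genes of chromosome 21 had a median log2 change of -0.34 in R50 and 0.28 for R50_OFF against R50, and the part of RUNX1 in that was not tested.

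The shared cofactor gene CBFB, whose product stabilizes RUNX proteins on DNA, was 1313, 1350 and 1320 in parent, 1049, 1484 and 967 in R50 and 1207, 1450 and 1436 in R50_OFF. The groups overlapped and no comparison passed (adjusted p = 0.194, 0.854 and 0.139). As for RUNX1, R50 replicate 2 was the high one, and without it CBFB was lower in R50 than in parent by -0.40 (adjusted p = 0.00113) and higher in R50_OFF than in R50 by 0.43 (adjusted p = 0.000794). Of 8 tested RUNX partners and targets, 4 were lower and 1 higher in R50 (2 higher without R50 replicate 2), and 3 were lower and 1 higher in R50_OFF. These shares, 62.5% and 50%, were close to the 63.3% and 52.0% of all tested genes. The corepressor genes TLE1 and TLE3 moved in opposite directions in R50_OFF: TLE1 fell from 3276 ± 163 to 1775 ± 47.1 and TLE3 rose from 298 ± 8.42 to 588 ± 8.91. CSF1R, a RUNX1 target in blood cells that encodes a growth factor receptor, fell from 1423 ± 45.6 to 197 ± 29.9 in R50 and 965 ± 64.4 in R50_OFF. Of the RUNX2 targets of bone, IBSP, BGLAP, ALPL, SP7, COL10A1 and MMP13 were not tested. SPP1, given above as a CD44 ligand, is in this list too. It was lower in both lines, by log2 changes of -3.45 in R50 (adjusted p = 2.65e-11) and -0.32 in R50_OFF (adjusted p = 0.000887), while RUNX2 was higher in both.

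The order of levels per length changed with the line. In parent it ran CD44, LGALS3, CHI3L1, STAT3, CEBPB, RUNX1, CHI3L2, RUNX2, S100A4 and CEBPD, and only the last 2 overlapped. In R50 CHI3L1 was in place 2 and CHI3L2 in place 10, with no overlap between any neighbours. In R50_OFF CHI3L1 was in place 6 and S100A4 in place 10, and only STAT3 and CEBPB overlapped. The divisors of these genes ran from 551.5 bases for S100A4 to 2282 for RUNX2.

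Likeness of profile was measured as the root-mean-square distance between log2(value + 1) profiles over the 9 libraries, each less its own mean, as a description. The genes nearest to CHI3L1 were SSX1 (0.35), CES1 (0.39) and SEMA3F (0.53), all highest in R50 and lowest in R50_OFF, so no tested gene with a symbol came closer than 0.35. S100A4 was nearest to IFI27 (0.19), TOB1-AS1 (0.20) and SEMA3B (0.21), and CHI3L2 to ABTB3 (0.13), GCNT3 (0.14) and MIR34AHG (0.16). CEBPD and RUNX2 were like each other, at 0.10, which was the smallest distance between any 2 of the 10 genes. CD44, STAT3 and RUNX1 each had other genes within 0.05, among them CASP2 at 0.04 from CD44, JRK at 0.04 from STAT3 and DDX21 at 0.03 from RUNX1.

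Other markers of the mesenchymal state moved in both directions in both lines. Of 45 tested, 15 were higher and 18 lower in R50 than in parent, and 16 were higher and 19 lower in R50_OFF, with medians of 0.07 and 0.03 beside 0.02 and 0.00 over all tested genes. These counts amount to 73.3% and 77.8% of the list, beside 63.3% and 52.0% of all tested genes. With quantile normalization 22 were higher and 17 lower in R50, and with upper quartile scaling 24 and 16. In R50_OFF upper quartile scaling gave 20 higher and 16 lower, so in both lines which direction was more frequent depended on the scaling. APOE, an apolipoprotein, was 13.7, 7.61 and 14.4 in parent, 1634, 1597 and 1792 in R50 and 25.2, 16 and 27.7 in R50_OFF. IFITM3, an interferon-induced membrane protein, rose from 733 ± 17.6 to 9209 ± 1227 in R50 and 3713 ± 127 in R50_OFF. C3, the central complement component, rose from 2419 ± 555 to 4795 ± 338 in R50 and fell to 664 ± 12.1 in R50_OFF, in the group order of CHI3L1. FN1, which encodes fibronectin, fell to 12547 ± 598 and 6074 ± 276, and GFPT2, an enzyme of the hexosamine pathway, fell from 21047 ± 356 to 4297 ± 137 in R50 and was 22762 ± 866 in R50_OFF.

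**Figure D4:**
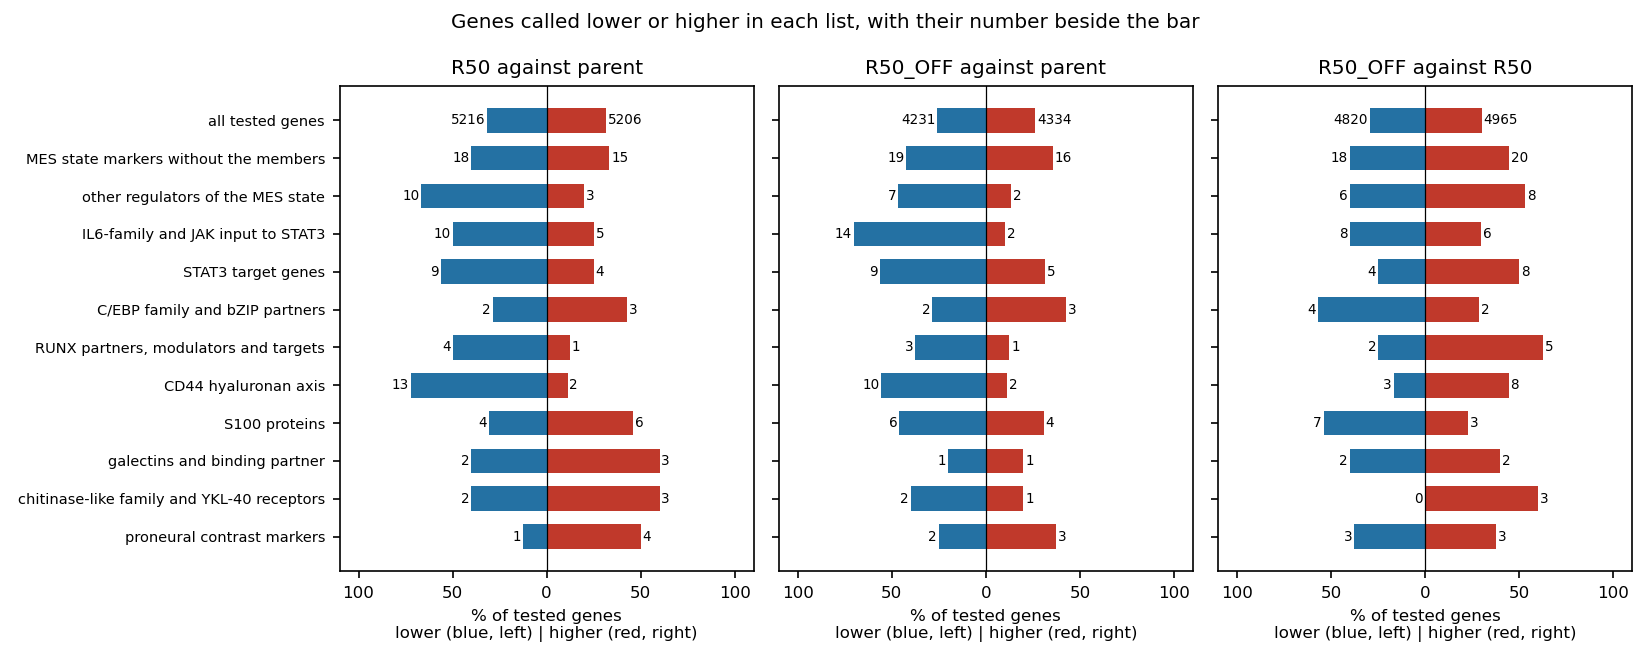
Share of tested genes called lower (left, blue) or higher (right, red) in each gene list and over all tested genes (top bar), for the 3 comparisons, with the number of genes beside each bar. In the CD44 hyaluronan axis 13 of 18 tested genes were lower in R50 than in parent, whereas the other mesenchymal state markers split into 15 higher and 18 lower.

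Of 15 other regulators of the mesenchymal state, a list that mixes genes favouring and opposing it, 10 were lower and 3 higher in R50. In R50_OFF 7 were lower and 2 higher. These are 86.7% and 60% of the list, beside 63.3% and 52.0% of all tested genes. With quantile normalization the counts in R50 were 6 lower and 3 higher, and with upper quartile scaling 2 lower and 3 higher. In R50_OFF upper quartile scaling gave 5 lower and 4 higher. FOSL1, an AP-1 subunit gene, was 9314, 9059 and 9200 in parent, 3238, 3236 and 3275 in R50 and 6986, 6840 and 7243 in R50_OFF. It fell by -1.50 in R50 (adjusted p = 2.23e-10) and by -0.39 in R50_OFF (adjusted p = 1.2e-05). NF1, whose loss is a known mark of mesenchymal glioblastoma, fell from 1618 ± 34.1 to 960.4 ± 70.1 in R50_OFF (adjusted p = 2.36e-06). NF1 counts among the lower genes in R50 as well (-0.15, adjusted p = 0.0481), so the counts of this list give no direction for the state. BHLHE40, a basic helix-loop-helix factor, rose from 6459 ± 332 to 8050 ± 259.6 in R50_OFF (adjusted p = 0.000566). In R50 it was lower than in parent, at 5309 ± 294 (adjusted p = 0.00088). TWIST1 fell from 553 ± 52.5 to 363 ± 7.5 in R50 (adjusted p = 0.000235). The genes higher in R50 were RELA (0.15) and, named after their values were seen, HIF1A (0.38) and FOSL2 (0.23).

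Markers of the contrasting proneural state were scarce. Of 16 fixed, 8 were tested, and 4 were higher and 1 lower in R50 than in parent, while 3 were higher and 2 lower in R50_OFF. That is 62.5% in each line, beside 63.3% and 52.0% of all tested genes. The 2 lower genes of R50_OFF became 1 without any 1 parent replicate or R50_OFF replicate 1 or 3. NCAM1, a neural adhesion molecule, rose from 267 ± 8.17 to 406 ± 39.5 in R50 and 681 ± 20.8 in R50_OFF. TCF4, a basic helix-loop-helix factor, was 1711 ± 66.8, 2045 ± 186 and 1661 ± 79.3, and passed in R50 (adjusted p = 0.00745) but not in R50_OFF (adjusted p = 0.628) against parent. Genes of lower signal in this list, named after their values were seen, went both ways. PDGFRA fell from a mean of 114 in parent to 7.48 in R50 and 35.3 in R50_OFF. SOX2 rose from 0 to 39.5 and 24.7, and OLIG2 was 20.3, 16.7 and 75.4 in the same order.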

How the data were processed

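Poly-A RNA was read from strand-specific libraries as single ends of 50 bases, per the labels' protocols. Base calls were converted with bcl2fastq 2.17.1.14 and the build was hg38, per the submitters' processing notes. For the aligner, counter, strand setting and annotation, no name is given in the sources used here. Per the file headers, the authors deposited a linear signal, scaled to make libraries comparable and expressed per kilobase of a gene's median transcript. All 33264 genes' values were whole multiples of a step (tolerance 0.02 reads), which gave traced reads, and library factors that matched median-of-ratios factors. IDs were matched to GENCODE version 44 (33137 matched), whose coordinates count from 1. Promoters of 9 genes came from RefSeq.

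The model was fitted to log2(value + 1) by limma (3.58.1, under R 4.3.3) with an empirical Bayes trend, all 9 libraries in 1 fit (6 residual degrees of freedom), two-sided, with Benjamini-Hochberg adjustment over the 16456 genes that reached 10 in 3 or more libraries. Log2 changes understate low genes. Fold changes are ratios of group means. The fit was also run on simulated counts with 1 spread for all groups, taken from the parent replicates. The wider spread of the R50 replicates was not simulated, and no result here rests on that run. Alternatives were pseudocounts 0.1 and 8, no filter, a minimum of 50, quantile normalization, upper quartile scaling, a replicate block, only the 2 groups compared, no trend and leaving out each library. The members and lists were chosen with earlier results of these data known. Named genes were the 10 members, up to 4 genes per list and comparison with the largest passing change, no overlap and a higher mean of at least the median tested gene, and 14 partners. Not all of them are described.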

Additional observations from a re-analysis of the deposited data

Results flagged for a closer look

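The changes of the 2 resistant lines from parent differed, by the direct test of R50_OFF against R50 (limma, adjusted p below 0.05), for 9 of the 10 genes, beside 59.5% of all tested genes. The difference was negative, with R50_OFF lower, for CHI3L1 (-4.48, adjusted p = 2.8e-12), S100A4 (-2.94), LGALS3 (-0.70), STAT3 (-0.27) and RUNX2 (-0.22). It was positive for CD44 (0.63), CHI3L2 (0.40), CEBPB (0.37) and RUNX1 (0.23). In this comparison the median over chromosome 6, where RUNX2 lies, was -0.31, and over chromosome 21, where RUNX1 lies, it was 0.28. Of 18 alternatives, 4 lost the call of CEBPB, 4 that of RUNX1, 1 that of CHI3L2 and 1 that of RUNX2. CHI3L1, S100A4 and LGALS3 passed against parent in opposite directions in the 2 lines, with the fall of S100A4 in R50_OFF resting on single libraries as described above.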

How the results depend on the processing

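Over 18 alternatives, 510 of 540 values of the 10 genes kept their direction and side of the threshold, 19 no longer passed, 11 newly passed and 0 reversed. The count of these genes higher in R50_OFF than in parent, 2 in the report, was 4 with quantile normalization, 4 with upper quartile scaling, 4 with only the 2 groups compared, and 2 to 4 when 1 library was left out, with 4 reached without R50 replicate 2. The count higher in R50_OFF than in R50, 4 in the report, was 1 with upper quartile scaling and 3 to 4 when 1 library was left out. The cause was not tested. The other counts of these genes ranged, when 1 library was left out, over 6 to 6 higher and 2 to 3 lower in R50 against parent, 3 to 4 lower in R50_OFF against parent and 4 to 5 lower in R50_OFF against R50. All tested genes called ranged over 9285 to 10317, 7296 to 9140 and 8679 to 9590. Among other named genes 3 of 3672 values reversed, all with upper quartile scaling: EZR (0.11) and NF1 (0.12) in R50 against parent, and OSMR (-0.01) in R50_OFF against R50. With the replicate number as a block the genes counted 6 higher and 2 lower, 2 and 4, and 4 and 5, and all tested genes called were 10653, 8811 and 10046. Whether the numbers pair the samples is not given, and 3 replicates a group are too few to settle it. Over 9 pairs of libraries with the same number, the correlation of deviations from the group means ran from -0.02 to 0.10. In 4 of these 9 pairs the same number was the best match. Depth limits S100A4, CHI3L2 and CEBPD: counting error reached 14.8% of the mean for S100A4 in R50_OFF, 9.85% for CHI3L2 in R50 and 8.96% for CEBPD in parent.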
